A study of Homo sapiens with 9 samples.

Results

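The transcriptome described here is that of control cells of the human line HEK293 Flp-In T-REx. The series holds 9 libraries in 3 groups of 3, and the 3 libraries labelled as control were taken, with no contrast to any other group. All groups carry the same host genotype, the commercial Flp-In T-REx 293 line. For every group the labels give 10% serum and tetracycline (100 ng/ml) over 3 days, ending at confluence. The other 6 libraries express an inducible microRNA against TTC33 or CCDC97, whose depletion was the question of the study. The control cells express no such microRNA, so their RNA is that of a proliferating line under tetracycline, not of untreated cells, and not of kidney tissue. The labels do not say whether the replicates were separate cultures, so each SD below is that between the 3 libraries and could be technical in origin.

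HEK293 cells were derived from a human embryonic kidney culture transformed with adenovirus DNA, and they grow as an adherent, dividing line. The cell of origin is debated, because the line carries transcripts known from kidney, neural and adrenal precursors. During kidney development, SIX2, EYA1, PAX2, WT1, SALL1 and OSR1 act in nephron progenitors, which turn into podocytes and tubule cells that make transporters and secreted proteins of their own. The Flp-In T-REx derivative adds a recombination site and a tetracycline repressor to the line.

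Replicates 1, 2 and 3 held 35262832, 36110891 and 31296393 gene counts. Levels are gene counts scaled to a library total of 1000000 (CPM). A gene was taken as on where it reached 1 CPM in each library and off where it stayed under 0.1 CPM in each, which is close to 3 counts, and genes in neither class are termed between. A count of 0 allows up to 0.0831 to 0.0959 CPM (3 counts, by library, counting error only). CPM grows with transcript length, so levels of single genes are compared with each other in TPM, while ranks, class medians and shares in CPM describe counts and not molecules per cell. TPM is the count per kilobase of exon scaled to the same total. The exon length joins the exons of all annotated transcripts of a gene, so it can exceed the length of the message made. The TPM of a gene with several transcripts can thus be too low beside that of a gene with 1 exon.

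The promoters of 6 genes are shown to illustrate 2 sequence features, in genes that hold them and in genes that do not. The first 3 belong to the signalling adaptor among the most abundant genes (IRS4), a nephron progenitor factor that was on (SIX2) and a kidney product with no count (UMOD). Each runs 5' to 3' on the gene's strand, from 200 bases before the RefSeq start to 30 after it (GRCh38.p14), with CpG dinucleotides in capitals. IRS4 lies at chrX:108736534-108736763, SIX2 at chr2:45009423-45009652 and UMOD at chr16:20352686-20352915, all on the minus strand.
IRS4: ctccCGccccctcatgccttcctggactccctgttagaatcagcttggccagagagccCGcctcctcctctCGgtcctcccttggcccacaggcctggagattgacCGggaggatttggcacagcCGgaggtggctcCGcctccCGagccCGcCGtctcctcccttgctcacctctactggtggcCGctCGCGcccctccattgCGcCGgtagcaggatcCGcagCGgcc
SIX2: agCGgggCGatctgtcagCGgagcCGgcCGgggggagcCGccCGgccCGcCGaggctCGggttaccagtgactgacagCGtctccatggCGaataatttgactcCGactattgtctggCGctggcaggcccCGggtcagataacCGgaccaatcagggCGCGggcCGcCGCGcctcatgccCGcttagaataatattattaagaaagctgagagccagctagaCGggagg
UMOD: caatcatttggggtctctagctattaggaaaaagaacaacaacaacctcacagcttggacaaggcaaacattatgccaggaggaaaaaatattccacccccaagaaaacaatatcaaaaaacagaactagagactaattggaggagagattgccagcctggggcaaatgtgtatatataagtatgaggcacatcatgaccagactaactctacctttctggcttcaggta

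In the full window of 300 bases, the promoter of IRS4 holds 23 CpG, that of SIX2 holds 29 and that of UMOD holds 2. The motif CG reads the same on both strands. Among the protein-coding genes that were on, 82.0% had a promoter in the RefSeq table, and their median was 27 CpG (quartiles 19 and 35, 10145 promoters). Over all protein-coding genes, of which 76.8% were matched, the median was 22 CpG (quartiles 9 and 32, 15338 promoters). The whole table, with 35116 promoters, is a wider set than these genes, and its median was 14 CpG. The promoters of genes that were off could not be compared, since fewer than 80% of those genes were matched, so the CpG count of UMOD is that of a single gene.

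The other 3 are shown for the start site itself, since genes of the translation machinery often begin within a run of pyrimidines. They cover 15 bases before to 25 after the start, with runs of at least 5 C or T in capitals. EEF1A1 lies at chr6:73521008-73521047, EEF2 at chr19:3985439-3985478 and RPL4 at chr15:66504831-66504870, all on the minus strand.
EEF1A1: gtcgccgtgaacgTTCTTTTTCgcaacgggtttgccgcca
EEF2: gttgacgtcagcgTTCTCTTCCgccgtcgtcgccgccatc
RPL4: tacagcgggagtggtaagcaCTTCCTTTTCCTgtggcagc

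A run of at least 8 pyrimidines on the gene's strand between 6 bases before and 12 after the start was present in 67.6% of the 68 matched promoters of cytosolic ribosomal protein genes that were on. Among the 10077 matched promoters of other genes that were on, the share was 7.46%, and over all promoters of the table it was 7.01%. The run in RPL4 reaches past this window and was not counted. A match describes the letters only.

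Many of the protein-coding genes with the most counts belong to the mitochondrial genome and to the translation machinery. MT-CO1, a subunit of cytochrome c oxidase, stood at 10263, 10533 and 11433 CPM in replicates 1, 2 and 3 (mean 10743 ± 613, SD, n = 3). MT-ND4, a subunit of complex I, stood at 5217, 5518 and 5681 CPM. The 13 mitochondrial protein-coding genes held 3.48% ± 0.13 of all counts, and replicate 3 was the highest for MT-CO1, MT-ND4 and MT-CO2. On the TPM scale they took 12 of the 16 highest places among protein-coding genes, led by MT-CO1 with 26794 ± 1153 TPM, MT-CO2 with 21255 ± 620.0 TPM and MT-CO3 with 20056 ± 414 TPM.

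Of the nuclear messages, EEF1A1, which brings aminoacyl-tRNA to the ribosome, had 5777, 5791 and 5881 CPM (3763 ± 15.7 TPM). EEF2, which moves the ribosome along the message, had 3693, 3519 and 3749 CPM (3490.4 ± 93.9 TPM). HSP90AA1, a chaperone, had 3292, 3475 and 3414 CPM (2488 ± 67.4 TPM). The values of EEF1A1 did not overlap with those of EEF2 in any library on either scale.

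Of the abundance classes, cytosolic ribosomal proteins held the most counts: 85 of 89 genes were on, 27 of them among the 100 most abundant genes, and together they held 5.39% ± 0.10 of counts. Translation factors held 2.15% ± 0.01 (65 of 72 on), heat shock proteins and chaperonins 1.81% ± 0.03 (68 of 82 on) and hnRNP and SR splicing proteins 1.60% ± 0.01 (33 of 39 on). Histone genes held 0.958% ± 0.039 (56 of 93 on), glycolytic enzymes 0.914% ± 0.020 (17 of 17 on) and tubulins and actins 0.818% ± 0.024 (18 of 29 on). Per joined exon length, the linker histone H1-2 was the highest nuclear protein-coding gene with 6298 ± 125 TPM. H2BC12, a core histone, followed with 4481 ± 202 TPM, and the ranges of both over the libraries did not overlap. The joined exons span 642 bases in H1-2 and 5948 in EEF1A1, so the place of H1-2 above EEF1A1 depends on these lengths.

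**Figure D1:**
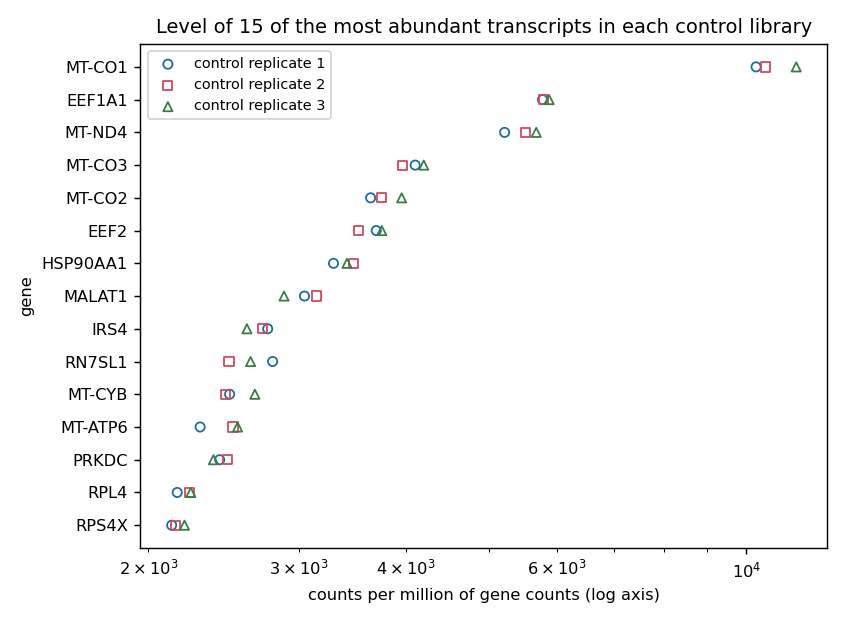
CPM (horizontal log axis) of 15 of the 16 genes with the highest mean CPM (vertical axis) in each of the 3 control libraries, 1 symbol per library. MT-CO1 lies between 10263 and 11433 CPM, and IRS4 lies between 2608 and 2758 CPM.

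IRS4 (ENSG00000133124, chrX:108732482-108736409, minus strand, GRCh38) was the tissue-restricted gene among these. Its protein is an adaptor that passes signals on from the insulin and IGF1 receptors and has a narrow tissue range in the body. It had 2758, 2720.1 and 2608 CPM (mean 2696 ± 77.9, SD, n = 3), which placed it 10th of all genes by mean CPM and 28th by TPM, with 2641 ± 112 TPM. By TPM its range overlapped with that of HSP90AA1, a general message: HSP90AA1 had 2436 to 2564 TPM and IRS4 2515 to 2727 TPM. By CPM the ranges did not overlap, with HSP90AA1 at 3292 to 3474.5 and IRS4 at 2608 to 2758. The joined exons span 5248 bases in HSP90AA1 and 3928 in IRS4, so the overlap by TPM depends on these lengths. The receptors that feed this adaptor were also on, IGF1R with 218, 217 and 214 CPM and INSR with 126 ± 1.79 CPM.

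PRKDC, the catalytic subunit of the DNA-dependent protein kinase that repairs double-strand breaks, had 2424, 2477 and 2383 CPM. Its transcript is long, and per length it fell to 606 ± 18.9 TPM, the 168th place. ZNF711, an X-linked zinc finger factor, had 1449, 1426 and 1397 CPM.

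The 10 most abundant genes held 6.15% ± 0.11 of counts, the top 100 held 17.7% ± 0.21 and the top 1000 held 47.4% ± 0.26. The gene with the highest mean CPM, a lncRNA, is counted in these shares but its level is not reported here. Between 1130 and 1159 genes made up the first 50% of counts in a library.

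Of the 60664 annotated genes, 14238 (23.5%) were on, 9346 were between and 37080 (61.1%) were off, of which 27865 had no count in any library. Among 19966 protein-coding genes, 12365 (61.9%) were on, 2465 between and 5136 (25.7%) off. These shares of protein-coding genes are the background for each list below. Protein-coding genes held 95.5% ± 0.01 of counts, and the median of those on was 35.8 CPM. Levels between 10 and 100 CPM were held by 7474 protein-coding genes, and those between 100 and 1000 CPM, 2300 genes, held 50.4% of all counts. The 68 protein-coding genes at or above 1000 CPM held 12.7%.

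Long non-coding RNAs (lncRNAs) were described in CPM. Of 16876 lncRNA genes, 1309 (7.76%) were on, with a median of 2.86 CPM, and the class held 3.46% ± 0.08 of counts. Just 3 lncRNAs at or above 1000 CPM held 2.31% of all counts, and 2 of them are named here. MALAT1, a nuclear RNA found at splicing speckles, had 3045, 3143 and 2882 CPM. NEAT1, the scaffold of paraspeckles, had 1312, 1216 and 1101 CPM. NORAD, which binds Pumilio proteins, had 421, 430.0 and 399 CPM and SNHG16, a host of small nucleolar RNAs, 338, 319 and 314 CPM. All 4 were lowest in replicate 3.

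Pseudogenes of all classes numbered 15266, of which 410 were on, and they held 0.441% ± 0.004 of counts. Of 949 transcribed unprocessed pseudogenes 200 were on (21.1%), among them HERC2P2 with 2306, 2392 and 1982 counts and CCDC144B with 2191, 2221 and 1828 counts. Reads of such copies can be shared with the parent gene, so these levels are uncertain. The same holds for RN7SL1, the RNA of the signal recognition particle, with 2795, 2486 and 2634 CPM, all of whose exon bases lie within a second annotated gene.

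**Figure D2:**
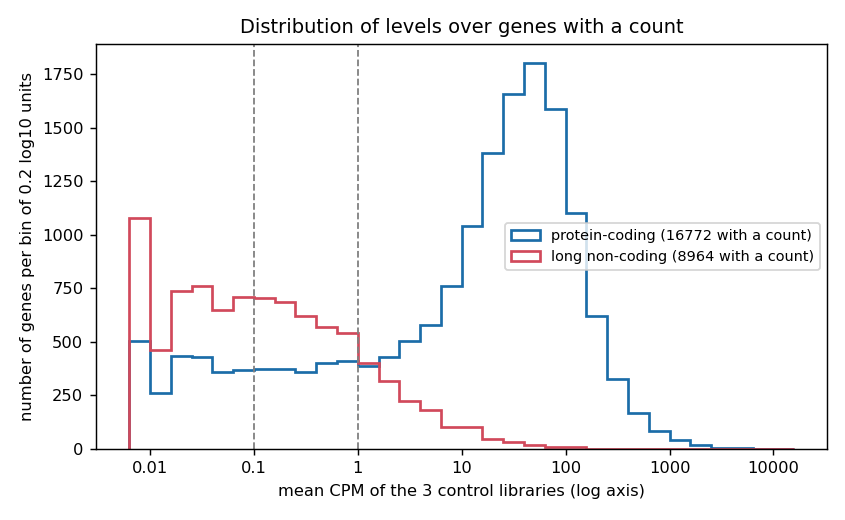
Number of genes (vertical axis) by mean CPM over the 3 control libraries (horizontal log axis) for protein-coding and long non-coding genes with at least 1 count. 1 lncRNA is left out, and dashed lines mark 0.1 and 1 CPM. Protein-coding genes peak between 10 and 100 CPM, while lncRNA counts fall off from 0.1 CPM upward.

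Kidney genes were read by developmental stage. Of 25 genes of the nephron progenitor and early kidney, 17 were on (68.0%), 6 between and 2 off, with a median of 5.58 CPM. Over all protein-coding genes 61.9% were on with a median of 9.25 CPM, so the share of this list was near the background and its median below it. SIX2, which keeps nephron progenitors undifferentiated (ENSG00000170577), had 5.39, 5.21 and 6.13 CPM. SALL1, a zinc finger factor of the same progenitors, had 58.9, 54.5 and 61.0 CPM. SIX2 and SALL1 were thus on in each library, and per length SIX2 had 9.72 ± 0.72 TPM.

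Other factors of this stage were on as well, in CPM: EYA1, a cofactor of SIX2, 14.6 ± 0.34, WT1 8.42 ± 0.64, PAX2 5.80 ± 0.32 and OSR1 3.56 ± 0.44. HOXA11 had 34.4, 33.2 and 32.1 CPM and HOXD11 15.7 ± 0.72 CPM, both patterning factors of the kidney mesenchyme, although 31.1% of HOXA11 exon bases are shared with its antisense gene and cannot be told apart here. The ligand GDNF, which draws out the ureteric bud, had 10.1 ± 0.05 CPM, and its receptor RET 2.79 ± 0.30 CPM. ITGA8, an integrin of the kidney mesenchyme, had 49.5, 47.5 and 44.7 CPM.

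The list was not complete. PAX8, a paired-box factor of the developing nephron, had 2, 1 and 2 counts, and CDH6, a cadherin of early tubules, had 0 in each library. CITED1, a marker of the least differentiated progenitors, was between, with 7, 10 and 4 counts.

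Lists of the mature nephron differed among themselves. Of 10 podocyte genes, 5 were on, 3 between and 2 off. PODXL, a sialomucin that is found on other cells too, had 107, 103 and 103 CPM. NPHS1, the slit diaphragm protein nephrin, was not on, with 9, 6 and 9 counts. Of 16 proximal tubule genes, 3 were on, 5 between and 8 off. LRP2, the endocytic receptor megalin, had 121, 125 and 124 CPM, while CUBN, its partner cubilin, had 1.30, 1.33 and 1.98 CPM. The bicarbonate cotransporter SLC4A4 had 25.1, 24.6 and 23.6 CPM. The phosphate transporter SLC34A1 and the organic anion transporter SLC22A6 had 0 counts, and the tubule regulator HNF4A had 1, 3 and 2.

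None of the 8 genes of the loop of Henle and distal tubule was on, while 4 were between and 4 off. The highest of them had a mean of 0.991 CPM, and 1 gene was on at a threshold of 0.5 CPM. UMOD, an abundant protein of urine, had 0 counts in each library, and the salt transporters SLC12A1 and SLC12A3 had 1 count each over the 3 libraries. Of 13 collecting duct genes, 2 were on, GATA3 with 24.9, 24.3 and 23.5 CPM and AQP3 with 51, 58 and 45 counts, and 7 were off. AQP2, the water channel under vasopressin control, had 0, 2 and 0 counts, and the vasopressin receptor AVPR2 had 0. The labelled origin of the line is embryonic kidney. UMOD, AQP2, SLC34A1, SLC12A1 and SLC12A3, products of mature tubule segments, had 2 counts or fewer in any library. In contrast, LRP2, CUBN and SLC4A4 of the proximal tubule list and GATA3 and AQP3 of the collecting duct list were on.

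**Figure D3:**
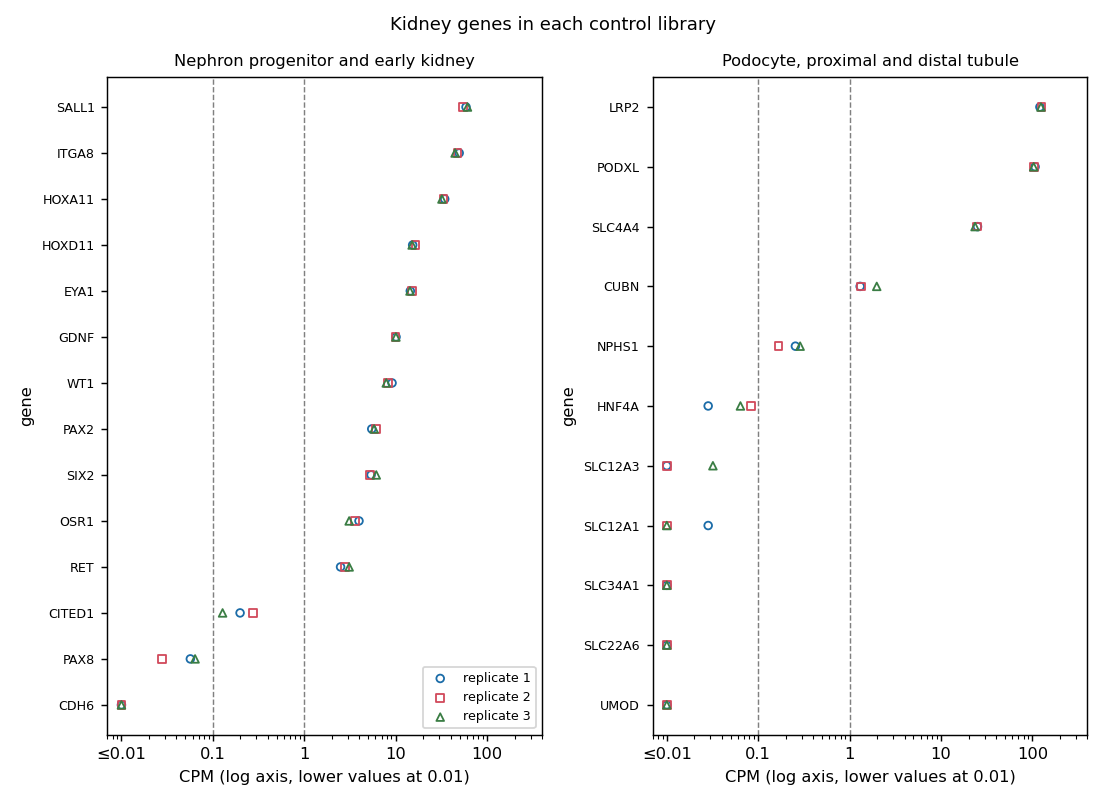
CPM (horizontal log axis, values under 0.01 drawn at 0.01) of the genes named in the text from the early kidney list (left) and from the podocyte, proximal and distal tubule lists (right) in each control library, 1 symbol per library. Dashed lines mark 0.1 and 1 CPM. On the left 11 of 14 genes lie above 1 CPM in all 3 libraries, on the right 4 of 11.

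The adrenal lies next to the kidney, and its genes were read for that reason. None of 13 genes of the adrenal cortex was on: NR5A1, the steroidogenic regulator, had 1, 1 and 0 counts, and CYP11A1, the first enzyme of steroid synthesis, 0, 1 and 0. SULT2A1, a steroid sulfotransferase, was between, with 0.936, 0.969 and 0.831 CPM,. Of 17 genes of chromaffin and sympathetic cells, 5 were on, among them GATA2 with 10.3 ± 0.15 CPM, HAND2 with 4.96 ± 0.38 CPM and the granule proteins CHGA and CHGB with 1.34 ± 0.25 and 2.61 ± 0.85 CPM. The catecholamine enzymes TH and DBH had 0 counts in each library.

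Neural genes were on in part. Of 20 neuronal genes, 9 were on (45.0%), beside 61.9% of all protein-coding genes. UCHL1, a deubiquitinase abundant in neurons, had 379.8, 382 and 385 CPM (644 ± 5.21 TPM). NEFL, the light neurofilament chain, had 190.3, 191 and 191 CPM (170 ± 2.18 TPM), and INA, alpha-internexin, had 58.4, 57.3 and 58.2 CPM (69.0 ± 1.01 TPM). Their order was the same in each library. The neurofilament chain NEFM was not on, with 22, 34 and 24 counts, and DCX and STMN2, markers of young neurons, had 1, 1, 0 and 0, 0, 1 counts.

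Of 18 neural progenitor genes, 11 were on (61.1%). ZIC2, a zinc finger factor of the neural plate, had 122, 125 and 125 CPM, MSI1, an RNA-binding protein of stem cells, 57.5, 55.0 and 56.8 CPM, and SOX2 20.8, 19.7 and 19.4 CPM. PAX6 had 43.6 ± 1.19 CPM and PAX3 22.9 ± 0.96 CPM, while SOX1, FABP7, HES5 and OTX2 were not on, the last 3 with no count. Of 12 glial genes, 7 were on, among them the glutamate transporter SLC1A3 with 111, 113 and 117 CPM, and OLIG2 had 5.64 ± 0.40 CPM. The astrocyte filament GFAP had 11, 10 and 11 counts and SOX10, the regulator of oligodendrocytes and neural crest, 0, 1 and 0.

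Epithelial and mesenchymal genes were on side by side. Of 20 epithelial genes 8 were on, and of 20 mesenchymal genes 13. EPCAM, an adhesion molecule of epithelia, had 91.3, 95.4 and 91.6 CPM (142 ± 4.60 TPM). The keratins of simple epithelia were on, KRT8 with 128, 118 and 129.7 CPM, KRT18 with 79.8, 77.5 and 80.7 CPM and KRT19 with 68.9 ± 2.09 CPM, while KRT5 and KRT7 had no count. VIM, the mesenchymal intermediate filament, had 629, 619 and 630.1 CPM (467 ± 5.85 TPM).

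The cadherins differed in level. CDH2, N-cadherin, had 151, 150.4 and 146 CPM (116 ± 3.83 TPM) and CDH1, E-cadherin, had 12.6, 9.94 and 10.5 CPM (6.86 ± 0.92 TPM), with no overlap. The repressors of epithelial genes ZEB1 and ZEB2 had 73.4 ± 1.57 and 74.2 ± 3.14 CPM, but GRHL2, which maintains epithelia, was off. The collagen gene COL1A2 had 0, 0 and 1 count and the matrix protein DCN 0.

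Of 18 genes of endoderm, pancreas, gut and lung 8 were on: LGR5, a Wnt target and stem cell receptor, had 82.9, 79.0 and 81.7 CPM, GATA6 61.6, 59.6 and 60.4, GATA4 36.2 ± 1.71, FOXA1 35.3 ± 1.60 and CDX2, the gut homeobox factor, 15.9 ± 0.86 CPM. PDX1 and NKX2-1, which direct pancreas and lung, had 2.65 ± 0.36 and 4.28 ± 0.23 CPM. The products INS, GCG, SST, SFTPC, SFTPB and SCGB1A1 all had 0 counts. Of 14 muscle genes 2 were on, NKX2-5, a heart factor, with 14.8 ± 0.42 CPM and MYH3, the embryonic myosin heavy chain of the sarcomere, with 4.75 ± 0.24 CPM. Another 6 were between and 6 off, among the latter the sarcomere genes MYH6, MYH7 and TNNT2.

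Lists of cells that a kidney culture could hold beside the main type were low. No blood gene of 21 was on, 15 were off, and PTPRC, the pan-leukocyte phosphatase, had 0.0187 ± 0.016 CPM. In this list 1 gene was on without replicate 1 or without mitochondrially encoded genes, and 2 at a threshold of 0.5 CPM. Of 12 endothelial genes 1 was on, FLT1 with 44.9, 48.5 and 47.9 CPM, while PECAM1 had 1, 2 and 1 counts. No hepatocyte gene of 12 was on, and ALB had 1, 2 and 1 counts. Over all 20 lineage lists, 97 of 308 genes were on (31.5%), 84 between and 127 off (41.2%).

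**Figure D4:**
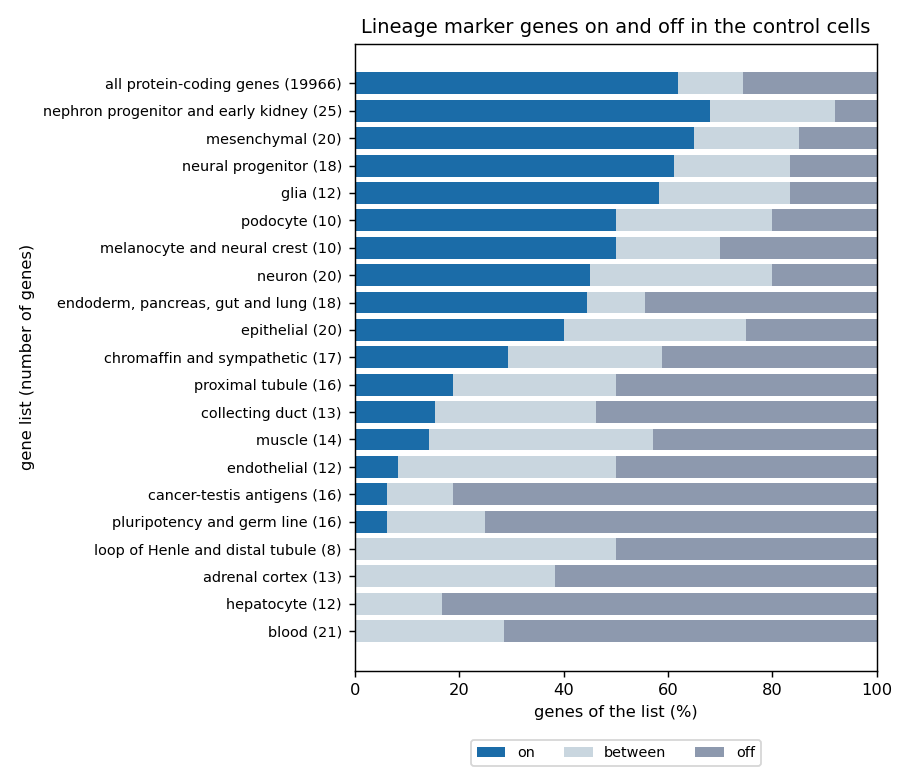
Share of genes on, between and off (horizontal axis, percent of the genes of a list) for all protein-coding genes and for 20 lineage lists (vertical axis, number of genes in parentheses). The nephron progenitor and mesenchymal lists, at 68.0% and 65.0% on, lie above the 61.9% of all protein-coding genes, and 4 lists have no gene on.

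Of 16 genes of pluripotency and germ line, 1 was on, 3 were between and 12 off. POU5F1 had 0, 1 and 0 counts and NANOG none, while SOX2, which also acts in pluripotent cells and is listed under neural progenitors, was on. The gene on in this list was LIN28B, which blocks maturation of let-7 microRNAs, with 169, 174 and 174 CPM (110.5 ± 1.42 TPM); its paralogue LIN28A had 1, 0 and 2 counts. Of 16 cancer-testis antigens, PRAME alone was on, with 17.1, 17.5 and 18.1 CPM.

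Genes of cell division were on almost throughout, 26 of 27, with a median of 106 CPM. MKI67, a protein of dividing cells, had 1280, 1298 and 1297 CPM, and the replication clamp PCNA 314, 309 and 314 CPM. CCND2, a D-type cyclin, had 433, 439 and 423 CPM and MYC 148, 142 and 147 CPM. MDM2, a ubiquitin ligase, had 308, 302 and 277 CPM. Genes that restrain division were on as well: the kinase inhibitor CDKN1A had 33.6, 32.3 and 36.4 CPM, RB1 152 ± 4.43 CPM and CDKN2A 103, 101 and 106 CPM. TERT, the telomerase reverse transcriptase, was on at a low level, with 71, 80 and 60 counts, and MYCN was the gene not on, with 9, 3 and 6 counts.

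Receptors were described by class. Of 58 receptor tyrosine kinases 40 were on (69.0%). The ephrin receptor EPHA7 had 232, 236 and 238 CPM (121 ± 1.05 TPM), MET, the receptor of hepatocyte growth factor, 203, 206 and 199.8 CPM (111 ± 3.09 TPM), ERBB2 71.3 ± 2.54 CPM and EGFR 46.2 ± 0.89 CPM. CSF1R, TEK and NTRK3 were off. Of 26 integrin subunits 16 were on, among them ITGB1, the common beta chain, with 311, 312 and 319 CPM and ITGAV with 95.7 ± 1.36 CPM. The 4 subunits off were ITGAX, ITGAD, ITGB6 and ITGB7. Of other subunits known from leukocytes, ITGA4 had 74.8 ± 0.51 CPM and ITGAE 22.9 ± 0.48 CPM, while ITGB2, ITGAL and ITGAM were between.

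Of 48 nuclear receptors 32 were on (66.7%). NR2F2, an orphan receptor of mesenchyme, had 136, 136 and 140.1 CPM (81.8 ± 0.26 TPM), and NR3C1, the glucocorticoid receptor, 131, 129 and 128 CPM. The thyroid hormone receptors THRA and THRB had 40.4 ± 1.23 and 44.9 ± 0.64 CPM. The estrogen receptor gene ESR1 was off, with 1, 1 and 2 counts.

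Of 156 G protein-coupled receptor genes in 7 lists, 42 were on (26.9%) and 70 off (44.9%). The frizzled list holds the frizzled receptors, which bind Wnt ligands, and SMO, the Hedgehog transducer, and 10 of its 11 genes were on. FZD3 had 146, 146 and 137 CPM and SMO 51.3, 51.8 and 53.8 CPM. The thrombin receptor F2R had 41.4, 39.3 and 38.7 CPM, F2RL1 30.7 ± 1.74 CPM and the ADP receptor P2RY1 41.0, 38.7 and 39.1 CPM. ADORA2B, an adenosine receptor, had 11.4 ± 0.64 CPM and the GABA receptor chains GABBR1 and GABBR2 36.3 ± 1.18 and 8.38 ± 0.14 CPM.

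Of 35 receptors for amines 5 were on, or 8 without replicate 3. Among them were ADRA2C, an adrenergic receptor, with 6.64, 6.90 and 6.81 CPM and the serotonin receptor HTR1D with 4.71, 4.51 and 3.80 CPM. Of 39 peptide hormone receptors 8 were on, among them VIPR1 with 14.9 ± 0.78, EDNRA with 9.29 ± 0.08 and OXTR with 8.14 ± 0.35 CPM, whereas the opioid receptor OPRM1 had 1, 0 and 0 counts. Of 22 chemokine receptors CXCR4 alone was on, with 267, 268 and 266 counts.

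Of 47 cytokine receptor genes 25 were on. The shared chain IL6ST had 174, 179.8 and 183 CPM, LIFR 181, 181 and 178 CPM, and the interferon receptor chain IFNAR1 109.6 ± 1.81 CPM, while the lymphocyte chain IL2RG had 0 counts. Of 26 innate sensors and adaptors 10 were on. MAVS, the mitochondrial adaptor of RNA sensing, had 150.2, 151 and 153 CPM, IRF3 35.3 ± 0.90 CPM and STING1 (TMEM173) 19.1, 18.6 and 19.9 CPM. The cytosolic DNA sensor CGAS (MB21D1) had 4, 9 and 4 counts, and TLR2, TLR4, TLR7 and TLR8 had 2 counts or fewer in any library.

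Over 22 transcription factor families, 191 of 279 genes were on (68.5%). HOX genes, which set position along the body axis, were on in 35 of 39 cases, with at least 7 genes on in each of the 4 clusters. HOXA13 had 169, 169 and 157 CPM, HOXB9 115, 116 and 118 CPM and HOXA10 104 ± 2.31 CPM. Per length HOXB9 led the family with 173 ± 0.23 TPM, ahead of HOXA13 with 125 ± 7.07 TPM, and their ranges did not overlap. HOXB1 and HOXC12 were off.

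SOX4, a SOX factor of progenitors, led the listed families by TPM, with 229 TPM in its lowest library. FOXC1, a forkhead factor of mesoderm, had 219, 216 and 217 CPM (213 ± 3.70 TPM), and its TPM lay below that of SOX4 in each library. TBX18, a T-box factor of mesenchyme around the ureter, had 104, 101 and 104 CPM, whereas the heart and limb factor TBX5 had 0 counts. TFAP2A, an AP-2 factor of neural crest and ectoderm, had 94.7 ± 0.86 CPM, and LMX1B, a LIM homeobox factor, 27.6 ± 0.79 CPM.

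In 4 families every gene was on, with 8 of 8 E2F genes, 4 of 4 TEAD genes, 4 of 4 EBF genes and 3 of 3 RUNX genes. E2F1 had 68.9, 71.9 and 70.5 CPM, TEAD1 151, 152 and 146 CPM, EBF3 46.3, 44.5 and 44.5 CPM and RUNX1 47.9 ± 1.75 CPM. Close paralogues could differ: STAT5B had 83.5, 87.6 and 87.3 CPM and STAT5A 1, 2 and 3 counts. Of 9 IRF genes 8 were on, while IRF7, which amplifies the interferon response, had 0, 0 and 2 counts.

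Large gene families, which were added after the data had been seen, ranged from 0% to 100% on. All 30 Mediator subunits, 32 of 33 RNA polymerase subunits and 76 of 78 mitochondrial ribosomal proteins were on. Of 509 zinc finger genes with a ZNF symbol 434 were on (85.3%). No gene was on among 390 olfactory receptors, 94 keratin-associated proteins, 38 beta-defensins, 19 UDP-glucuronosyltransferases and 17 type I interferons. Of 55 keratins 4 were on and of 55 cytochromes P450 16, among them CYP4X1 with a mean of 26.1 CPM.

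The 3 libraries differed little for most genes. The coefficient of variation (SD over mean) had a median of 8.52% for genes at 1 to 10 CPM and 3.25% at 10 to 100 CPM. It was 2.04% at 100 to 1000 CPM and 2.46% at or above 1000 CPM. The counting value, 1 over the square root of the mean count, had medians of 9.25%, 2.87%, 1.34% and 0.465% in these bands. An SD of 3 values falls below the true SD more often than above it. A median under the counting value is therefore not variation below counting error. The common biological coefficient of variation, estimated with edgeR over genes on, was 4.15%. Each pair of libraries still differed beyond sampling noise, with chi-square per degree of freedom of 3.73 for replicates 1 and 2, 3.31 for 1 and 3 and 5.70 for 2 and 3. The sum runs over genes with at least 10 counts in the pair. A few genes with many counts and large differences, such as the mitochondrial ribosomal RNAs below, therefore weigh heavily in it. The values were not computed without those genes.

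The 5 genes with the largest coefficient of variation were MT-RNR1, MT-RNR2, RN7SL5P, a 5.8S ribosomal RNA gene and MT-ND6. MT-RNR1, the small mitochondrial ribosomal RNA, had 14985, 494 and 25095 counts, and MT-RNR2, the large one, 19180, 666 and 29674, so that replicate 2 was the low one in both. The messages MT-CO1 and MT-ND4 did not share this order, with 10533 and 5518 CPM in replicate 2, in each case between the other two. RN7SL5P, a copy of the signal recognition particle RNA, had 3985, 8442 and 691 counts, with replicate 2 the highest. MT-ND6, the only message of the light strand, had 5737, 2533 and 1582 counts. Rows that name no gene took 37.4%, 34.4% and 41.6% of all rows' counts, and alignments that were not unique 11.8%, 8.76% and 18.2%, in the same order of libraries as the mitochondrial ribosomal RNAs. Their part in these values was not tested. The protein-coding genes with the smallest variation included NOP56, a nucleolar protein, with 415.2, 414.9 and 414.9 CPM, and MCM4, a subunit of the replicative helicase, with 598 CPM in each library.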

How the data were processed

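Total RNA of 9 libraries was sequenced, and the 3 control libraries were described here. The authors deposited raw counts, whole numbers for each gene. Trimmomatic 0.39, HISAT2 and HTSeq 2.0.1 were used with GRCh38, per the submitters' processing notes. Strandedness and annotation release: not given in the sources used here. For that reason antisense and overlapping genes cannot be told apart. The R12 table of a sample was used throughout; a second table, U, holds fewer counts and its content is not described. Rows naming no gene (34.4% to 41.6% of counts) were left out.

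CPM used gene-row totals. TPM used the joined exon lengths of all transcripts of a gene in GENCODE release 29, found for 58396 of 60664 genes (99.86% of counts). Coordinates of genes are of that release and promoters are from RefSeq (first-listed start of a gene). All 679 listed genes were matched, 2 of them by newer symbols. No test between groups was made; edgeR 4.0.16 in R 4.3.3 gave the dispersion, and the steps were tested on simulated data.

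The members and lists (20 lineage lists, 12 receptor lists, 1 growth list, 22 factor families by symbol, of which the FOX pattern also takes FOXL2NB) were chosen with earlier results of these data known. Named genes are the 15 highest by CPM, the 15 highest protein-coding by TPM, per list up to 6 on, 4 off and its first 2 members, the 3 highest of frequent non-coding classes, and 5 genes each with the largest and smallest variation. List members named beyond this rule were chosen after their values were seen. The levels of some genes under the rule are not reported here. Alternatives were other thresholds, TMM and DESeq2 1.42.0 size factors, the sum of both tables, totals without mitochondrial genes, TPM, thinning to 31296393 counts and leaving out each replicate.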

Additional observations from a re-analysis of the deposited data

How the results depend on the processing

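Across 11 alternatives the number of genes on ranged from 12967 (threshold of 2 CPM) to 16944 (TPM) and that of genes off from 29589 (TPM) to 40303 (2 CPM and 0.2 CPM), against 14238 and 37080. The share of counts in the 10 most abundant genes, 6.15%, became 4.86% without mitochondrially encoded genes and 15.9% by TPM, and lay between 6.11% and 6.21% when each replicate was left out in turn. The protein-coding share, 95.535%, became 95.452% with both tables summed, 95.466% without mitochondrially encoded genes and 88.5% by TPM. The common biological coefficient of variation, 4.15%, was 3.53% to 5.02% when each replicate was left out, the highest value without replicate 1. Of 363 counts of list members on, 346 stayed within 1.5 times of the reported one. The TMM factors lay between 0.996 and 1.006. With them, and with DESeq2 size factors, genes on and off stayed at 14238 and 37080, so these alternatives could hardly move a list. Of the 17 that moved, 7 came from a threshold of 0.5 CPM, 3 from 2 CPM and 3 from TPM. Receptors for amines, 5 on, had 9 at 0.5 CPM, 3 at 2 CPM, 8 by TPM and 8 without replicate 3. No blood gene was on, but 2 were at 0.5 CPM, 1 without mitochondrially encoded genes and 1 without replicate 1. The cause of these shifts was not tested. No paired analysis was possible because no groups were compared and no result comes from a test. At this depth genes under about 0.1 CPM cannot be told from 0.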
